A study of Mus musculus with 5 samples.

Results

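The 9 immediate early response genes examined here were Fos, Fosb, Jun, Junb, Jund, Egr1, Atf3, Ier2 and Dusp1, out of 31053 gene rows in the count matrices. They were chosen by their measured levels in sorted against unsorted monocytes of these same libraries, so that contrast is described here and carries no test. Immediate early genes are transcribed within minutes of a stimulus, without new protein synthesis, when kinase cascades activate transcription factors that already sit on their promoters. FOS and JUN proteins pair through leucine zippers to form the AP-1 transcription factor, and ATF3 and EGR1 are further DNA-binding products of the same early wave. In blood cells these transcripts are known to report growth factor, cytokine and stress signals, and they are also known to appear when cells are handled outside the body.

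Single-cell 3′ gene expression was measured in 5 libraries of bone marrow (BM) from BALB/c mice of 4 to 8 weeks of age, with no genetic modification named. Of these, 3 were whole BM labelled CD45+, from naive mice and from mice at day 2 (D2) and day 7 (D7) after cyclophosphamide (CTX), an alkylating chemotherapy given at 150 mg/kg, each made from the pooled cells of 3 mice after removal of dead cells. The other 2 libraries were CD11b+Ly6Chi monocytes stained and sorted from naive BM and from BM of CTX-treated mice. The labels give no day for the sorted CTX library, and the study's methods give day 7. Each group was thus 1 pooled library, so that no difference between groups could be tested against biological spread, and sorting cannot be told apart from library, day of preparation or cell loss. Intervals are 95% intervals that cover counting error only.

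After removal of cells with fewer than 200 genes or at least 20% mitochondrial reads, 7104 naive, 6126 D2 and 8290 D7 whole BM cells and 1891 naive and 2564 CTX sorted cells were kept. Median depth was 3034 to 7190 unique molecular identifiers (UMIs, counted RNA molecules) per cell in whole BM and 9694 to 10299 in the sorted libraries, and 2 to 16 cell barcodes were shared between any pair of libraries. The filter removed 3.66% to 7.29% of barcodes from whole BM and 13.9% to 14.9% from the sorted libraries. Cells were assigned to classes by marker genes that did not include any of the 9 genes. The monocyte gate held 525 naive, 175 D2 and 711 D7 unsorted cells and 1752 naive and 2281 CTX sorted cells, which was 92.6% and 89.0% of the sorted libraries. In this gate Ly6c2 was detected in 74.9% to 94.1% of unsorted and 96.1% to 96.9% of sorted cells. Ly6c2 is 1 of the 7 markers that define the gate, so its detection is no independent check. Counting by 3′ ends does not scale with transcript length, and levels are given as counts per 1000000 UMIs of the gated cells (CPM). The T cell gene Cd3e was at 0 in this gate in all 5 libraries. The 7 T and NK markers together, however, summed to between 46.4 CPM (naive sorted) and 72.8 CPM (naive unsorted).

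Immediate early genes are known targets of CREB and ATF proteins, which bind the cyclic AMP response element (CRE, TGACGTCA), and of AP-1 itself, which binds TGANTCA. Promoters are shown only for the 5 members whose printed window held a match to the motifs marked below. The sequences are from RefSeq on GRCm38.p6 and run 5′ to 3′ on the gene's strand, from 250 bases before the RefSeq start to the last base outside the gene's annotated exons. Capitals mark matches, on either strand, to the CRE, to its half-site TGACG or to the variant TGACNTCA. Jund had no match, and the match of Atf3, at 7 bases before the start, lay in bases left out as exon. The Fos window is chr12:85473640-85473889 (plus strand), Fosb chr7:19310052-19310295 (minus), Jun chr4:95052223-95052472 (minus), Junb chr8:84978749-84978998 (minus) and Dusp1 chr17:26508520-26508722 (minus).
Fos: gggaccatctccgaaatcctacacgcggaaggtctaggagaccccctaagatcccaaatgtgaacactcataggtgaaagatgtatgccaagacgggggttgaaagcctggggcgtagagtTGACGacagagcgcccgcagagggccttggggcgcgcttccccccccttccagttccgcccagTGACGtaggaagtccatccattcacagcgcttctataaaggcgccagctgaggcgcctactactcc
Fosb: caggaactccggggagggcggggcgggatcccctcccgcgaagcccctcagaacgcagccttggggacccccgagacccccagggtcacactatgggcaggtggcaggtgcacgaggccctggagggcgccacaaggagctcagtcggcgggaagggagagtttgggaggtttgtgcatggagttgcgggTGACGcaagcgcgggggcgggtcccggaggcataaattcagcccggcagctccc
Jun: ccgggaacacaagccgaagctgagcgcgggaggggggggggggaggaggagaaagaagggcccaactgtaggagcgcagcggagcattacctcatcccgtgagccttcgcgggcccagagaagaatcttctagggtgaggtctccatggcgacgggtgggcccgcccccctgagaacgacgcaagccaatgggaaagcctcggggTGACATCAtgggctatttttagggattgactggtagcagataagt
Junb: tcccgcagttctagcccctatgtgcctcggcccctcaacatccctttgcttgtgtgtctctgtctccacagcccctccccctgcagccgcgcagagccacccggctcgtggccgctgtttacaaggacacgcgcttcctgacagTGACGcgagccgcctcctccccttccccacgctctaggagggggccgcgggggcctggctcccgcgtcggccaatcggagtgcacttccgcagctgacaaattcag
Dusp1: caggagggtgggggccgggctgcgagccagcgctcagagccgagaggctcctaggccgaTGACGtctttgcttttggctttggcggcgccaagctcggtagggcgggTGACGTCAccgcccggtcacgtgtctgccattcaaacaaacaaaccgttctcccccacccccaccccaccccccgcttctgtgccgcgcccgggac

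Windows of 250 bases before the start were found for 7 of the 9 members (all but Ier2 and Egr1). The full CRE was present in 1 of the 7, Dusp1, at 143 bases before the start, and in 1.55% of all 32851 RefSeq windows of that length. The half-site TGACG was present in 5 of the 7 (Atf3, Fosb, Fos, Junb and Dusp1), against 17.8% of all windows. In Dusp1 a pair of its 3 matches overlapped the full CRE. The printed sequences held 58.4% to 69.3% G and C, against a median of 52.4% over all windows. The part of base composition in these shares was not tested. Fos held the half-site at 129 and 66 bases before its start, with a TATAAA at 33 bases. The variant TGACNTCA was present in Jun, at 45 bases before the start, and, as the full CRE, in Dusp1, against 7.49% of all windows. Neither the AP-1 site TGANTCA nor the CArG box of serum response factor was found in any of the 7 windows, against 6.75% and 1.47% of all windows. Bases farther than 250 before the start were not searched, so sites there would be missed. A match is a description of letters and says nothing about binding in these cells.

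In monocyte-gated cells all 9 genes were higher in the sorted than in the unsorted naive library by at least 1 log2 unit, where 2.35% of the 5841 genes compared were. Since the members were chosen on this contrast, nothing is read from that count. Summed over the 9 genes, the level was 2926 CPM in naive, 3217 CPM in D2 and 4432 CPM in D7 unsorted monocytes, and 14128 CPM in naive and 10880 CPM in CTX sorted monocytes. The sorted libraries lay above the unsorted ones in each pairing, 4.83-fold in naive mice and 2.45-fold at D7. At D7, 4 of the 9 genes (Fos, Jun, Jund and Atf3) were at least 1 log2 unit higher in sorted cells, against 0.752% of 5720 genes compared. The gap was thus smaller at D7 than in naive mice: the median log2 ratio of the members was 2.51 in naive mice and 0.97 at D7, beside -0.08 and 0.01 over all genes compared.

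**Figure D1:**
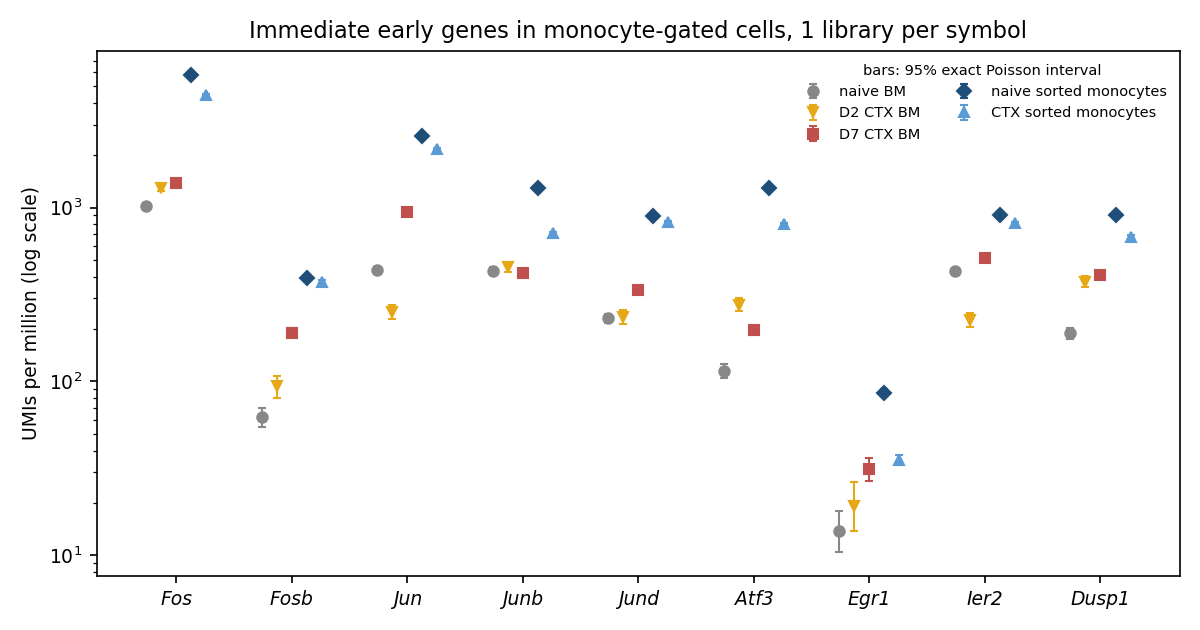
Level of each gene (CPM, log axis) in monocyte-gated cells of the 5 libraries, with 95% exact Poisson intervals as bars. The naive sorted library lies highest for all 9 genes, and the CTX sorted library lies between it and the unsorted libraries for all of them (Egr1 by a small margin, 35.3 against 31.2 CPM at D7).

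Fos (chr12:85473890-85477273), which supplies the FOS subunit of AP-1, was the most abundant member in this gate. It stood at 1015 CPM in naive, 1290 CPM in D2 and 1390 CPM in D7 unsorted monocytes and at 5780 CPM in naive and 4463 CPM in CTX sorted monocytes. The 3 unsorted values lay close together and the 2 sorted ones well above them. The log2 ratio of sorted over unsorted was 2.51 (2.46 to 2.55) in naive mice and 1.68 (1.65 to 1.72) at D7. Fosb (chr7:19302696-19310051), a FOS paralogue whose product also pairs with JUN, stood at 62.4, 93.6 and 190 CPM in naive, D2 and D7 unsorted cells and at 393 and 373 CPM in naive and CTX sorted cells. Its unsorted D7 level lay well above the naive one while its sorted levels were close, so that the sorted over unsorted log2 ratio was 2.66 in naive mice and 0.97 at D7.

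The JUN family differed among itself. Jun (chr4:95049034-95052222), the transactivating partner of FOS, stood at 437 CPM in naive, 251 CPM in D2 and 947 CPM in D7 unsorted monocytes, and at 2563 CPM in naive and 2171 CPM in CTX sorted monocytes. It was the lowest at D2 and, among unsorted libraries, the highest at D7. Junb (chr8:84974484-84978718), known as a weaker activator that can restrain JUN, stood at 433, 453 and 419 CPM in the naive, D2 and D7 unsorted cells, and at 1300 and 710 CPM in naive and CTX sorted cells. The 3 unsorted libraries were thus alike in Junb, and the sorted ones were not. Jund (chr8:70698949-70700616), the family member known to be expressed broadly in resting cells, stood at 230, 234 and 334 CPM unsorted and at 899 and 829 CPM sorted, in the same order. The sorted over unsorted log2 ratios in naive mice were 2.55 for Jun, 1.58 for Junb and 1.96 for Jund.

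Atf3 (chr1:191170296-191218039) encodes a stress-induced bZIP protein that is known to repress inflammatory genes in myeloid cells, and it had the largest sorted over unsorted ratio of the 9 in both conditions. Its level was 115 CPM in naive, 276 CPM in D2 and 197 CPM in D7 unsorted monocytes and 1300 CPM in naive and 801 CPM in CTX sorted monocytes. The log2 ratio was 3.50 (3.36 to 3.63) in naive mice, a fold of 11.3, and 2.02 (1.94 to 2.11) at D7, a fold of 4.07. Only 10 of the genes compared had a higher ratio in each of these pairings. Among them was Hist1h2ap in both (44.3 against 3105 CPM in naive mice), and Gm10076, which has near-identical copies elsewhere in the genome, was also among them in both; the part of such library-wide differences in the members' ratios was not tested. Immunoglobulin transcripts Igha and Jchain, marks of plasma cells, summed to 515 CPM in the naive sorted gate, 0.61 CPM in the CTX sorted gate and 21.8 to 56.3 CPM in the unsorted gates.

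The 3 members that are not AP-1 subunits behaved unequally. Ier2 (chr8:84661331-84662852), a nuclear regulator first described as a growth factor-inducible gene, had the smallest naive ratio of the 9. Its level was 430, 225 and 516 CPM in naive, D2 and D7 unsorted cells and 906 and 818 CPM in naive and CTX sorted cells, a log2 ratio of 1.08 in naive mice and 0.67 at D7. Dusp1 (chr17:26505590-26562128) encodes the phosphatase that switches off MAP kinases and so belongs to the feedback arm of the same response. It stood at 189, 374 and 407 CPM in the naive, D2 and D7 unsorted cells and at 900 and 681 CPM in the sorted ones, with log2 ratios of 2.25 in naive mice and 0.74 at D7.

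Other measurements on the gates were as follows. The summed level of the 7 B lineage markers in the monocyte gate was 157 CPM in naive, 54.5 CPM in D2 and 22.3 CPM in D7 unsorted cells and 15.3 and 17.4 CPM in the sorted ones, where Ms4a1 was at 0. The haemoglobin gene Hbb-bs stood at 2243 CPM in naive, 41.1 CPM in D2 and 12.1 CPM in D7 unsorted monocytes. In the naive and CTX sorted gates it stood at 0.20 and 1.13 CPM. The high value was thus that of the naive unsorted gate, and its part in the ratios was not tested. Summed mature neutrophil markers were 937 to 1214 CPM in the unsorted and 561 to 738 CPM in the sorted gates. The erythroid gate of naive BM held 7.5 CPM of Fos and 0.14 CPM of Atf3, far under the levels in either kind of monocyte. Unsorted monocytes were then restricted, together with the sorted ones, to cells at or above the 10th percentile of Ly6c2 of the naive sorted cells, a choice made after seeing the data that kept 64.6% to 88.0% of unsorted and 88.6% of CTX sorted cells. The summed log2 ratio was then 2.24 in naive mice (2.27 without the restriction) and 1.27 at D7 (1.30 without). The restriction acts on Ly6c2 counts only, and the part of cell makeup in the ratios was not tested.

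The difference was also seen cell by cell. Each cell was thinned to 2000 UMIs, which left out 5 to 47 shallower monocyte-gated cells per library. The median cell then held 6 UMIs of the 9 genes in naive, 7 in D2 and 9 in D7 unsorted monocytes, 29 in naive sorted and 21 in CTX sorted monocytes. The bulk of the sorted cells was displaced, not a small fraction of them: 10% of naive sorted cells held 14 or fewer, and 90% of naive unsorted cells held 12 or fewer. None of the 507 naive unsorted cells reached the naive sorted median, which allows a share of up to about 0.592% (3 counts over the cells). By contrast, 21 of 698 D7 unsorted cells (3.01%) did reach the CTX sorted median. Conversely 33 of 1713 naive sorted cells (1.93%) and 155 of 2234 CTX sorted cells (6.94%) lay at or below the median of their unsorted counterpart.

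**Figure D2:**
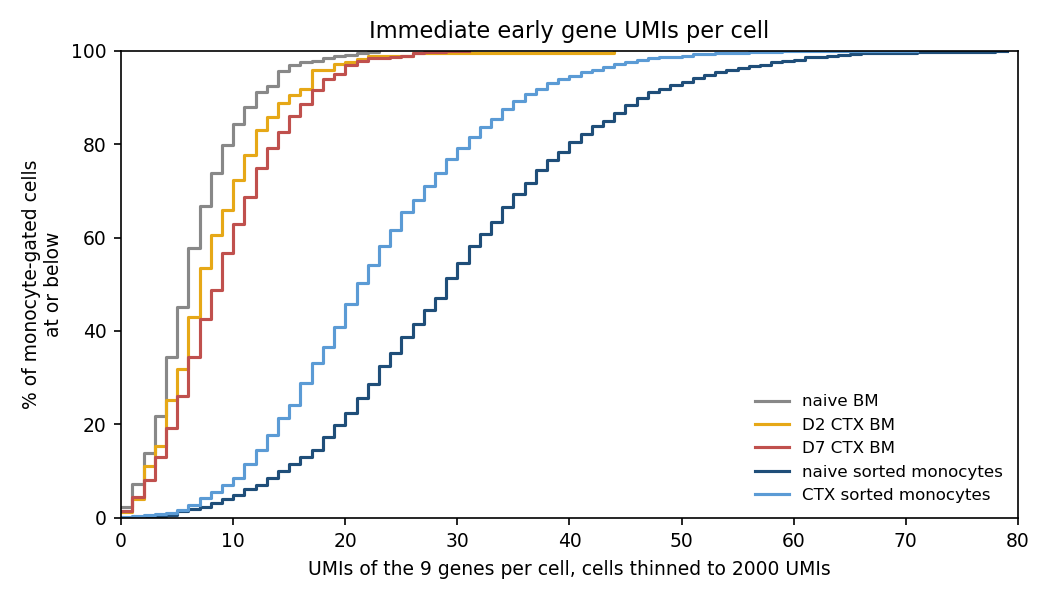
Cumulative percentage of monocyte-gated cells (vertical axis) at or below a given number of UMIs of the 9 genes (horizontal axis), with every cell thinned to 2000 UMIs. The 3 unsorted curves reach 50% at 6 to 9 UMIs and the sorted curves at 21 (CTX) and 29 (naive).

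At least 5 of the 9 genes were detected in 25.4% of naive (exact binomial interval 21.7% to 29.5%), 35.9% of D2 and 48.1% of D7 unsorted monocytes, and in 91.6% of naive (90.2% to 92.9%) and 86.4% of CTX sorted monocytes. In the erythroid gate of naive BM, thinned to the same depth, 0 of 349 cells did so, which allows a share of up to about 0.86% by the same rule. Without thinning, the monocyte shares were 72.4%, 92.6%, 90.3%, 99.2% and 98.6% in the same order of libraries. Atf3 had the widest gap of the 9 in detection between the naive libraries: it was seen in 22.5% of naive, 41.8% of D2 and 30.8% of D7 unsorted cells and in 81.7% and 66.6% of naive and CTX sorted cells. It was seen in 0.287% of erythroid and 0.0627% of B lineage cells of naive BM at the same depth. Within the naive sorted library, UMIs of the 7 members with a mean of at least 1 UMI per cell correlated only weakly over 1713 cells (median Pearson r 0.19 over 21 pairs, 0.09 to 0.35), and the 7 housekeeping genes that met this limit had a median r of -0.01. All cells of a library share its preparation and depth limit, and so weak a correlation in sparse counts is no finding.

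The sorted libraries were not uniform in these genes. Cells with at least 2 genes of the azurophil granule list, which are transcribed in early granulocyte and monocyte precursors, made up 17.3% of naive (317 cells) and 24.1% of CTX (600 cells) sorted cells that reached 2000 UMIs. Their summed level was 8987 CPM in the naive and 7465 CPM in the CTX library, against 15449 CPM and 11647 CPM in the 1274 and 1524 cells positive for none of the azurophil, MHC class II and cycling lists. All 9 genes were lower in azurophil-gene cells in both libraries, but unequally. Atf3 stood at 488 against 1570 CPM in naive and 267 against 1052 CPM in CTX sorted cells, and Junb at 508 against 1634 CPM and 332 against 928 CPM. Jun, by comparison, stood at 1914 against 2610 CPM and 1662 against 2186 CPM, and Ier2 at 777 against 943 CPM and 696 against 864 CPM. Egr1 was at 62.1 against 93.2 CPM in the naive library and at 35.9 against 37.0 CPM in the CTX library. Azurophil-gene cells were also deeper, with a median of 17302 UMIs against 9572 in the naive library, and the part of depth in these differences was not tested.

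**Figure D3:**
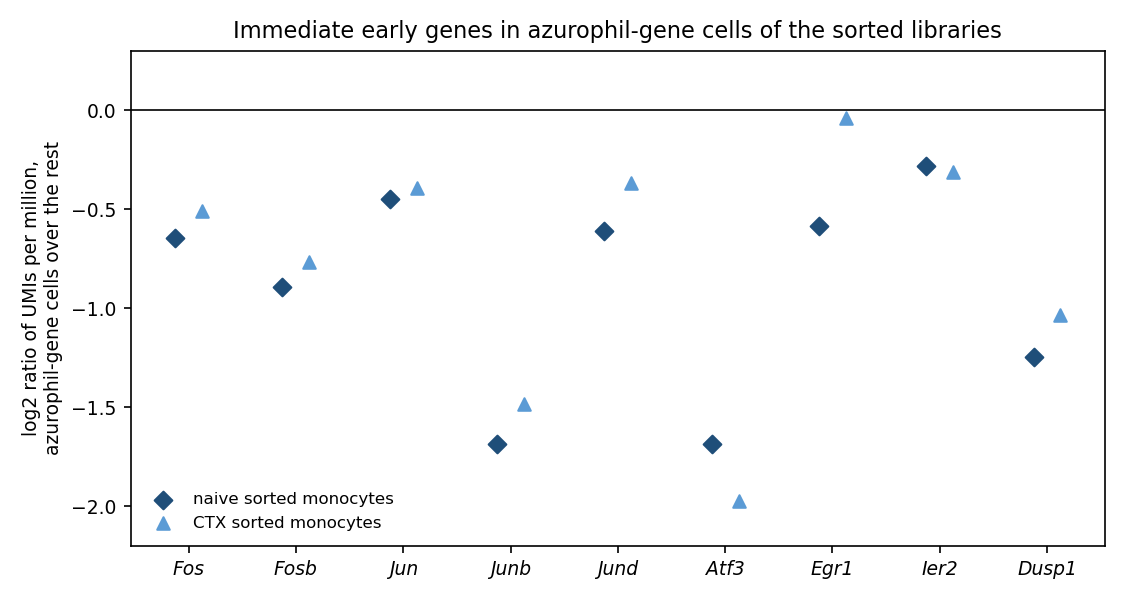
Log2 ratio of the level (CPM) in azurophil-gene cells over that in cells positive for none of the 3 lists (vertical axis) for each gene, in the naive and CTX sorted libraries. All points lie below 0, with Atf3 and Junb lowest and Egr1 of the CTX library nearest to 0 at -0.04.

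In sorted cells that were not gated as monocytes most members also lay above their unsorted level, but so did many other genes. Among cells gated as azurophil precursors, 8.42% of the 3478 genes compared between the CTX sorted and the D7 whole BM library were at least 1 log2 unit higher in the sorted one, and the median log2 ratio was 0.30. Fos stood at 1130 CPM in the CTX sorted library (102 cells) and at 124 CPM in D7 whole BM (524 cells), a log2 ratio of 3.19 (3.06 to 3.32). Jun stood at 1098 against 232 CPM, Atf3 at 38.1 against 3.77 CPM and Jund at 425 against 124 CPM. Junb stood at 118 against 96.6 CPM, a log2 ratio of 0.29 that lay at the median of all genes compared. The 50 cells gated as immature neutrophils in the CTX sorted library held 603 CPM of Fos, against 74.7 CPM in the 5190 such cells of D7 whole BM. These cells passed a CD11b+Ly6Chi sort, so they need not be the same population as the unsorted class.

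CTX was accompanied by opposite differences in the 2 kinds of preparation. Among sorted monocytes all 9 genes were lower after CTX than in naive mice, with log2 ratios from -0.07 (Fosb) to -1.29 (Egr1), and 1 of 9 was at least 1 log2 unit lower, against 0.755% of 5563 genes compared. Junb was at -0.87 (-0.90 to -0.85), Atf3 at -0.70, Dusp1 at -0.40, Fos at -0.37 and Jun at -0.24. Among unsorted monocytes at D7, 8 of the 9 were higher than in naive mice and 4 of 9 (Fosb, Jun, Egr1 and Dusp1) by at least 1 log2 unit, against 0.329% of 5475 genes compared. The count was 3 with the mean of the cells' CPM, where Dusp1 was at 0.92, and 3 without the top 5% of cells by UMIs, where Egr1 was at 0.92. Egr1 reached 20 CPM only at D7 (31.2 against 13.9 CPM in naive cells), so it was compared through its higher group. Fosb was at 1.61 (1.41 to 1.81), Jun at 1.12, Dusp1 at 1.11 and Fos at 0.45. Junb was the exception at -0.05 (-0.14 to 0.04), an interval that included 0. Both naive libraries enter these ratios as well as the sorted over unsorted ones, so the 4 sets of ratios are not independent of each other. The genes were chosen on sorted against unsorted levels, so the opposite signs are not independent of that choice.

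**Figure D4:**
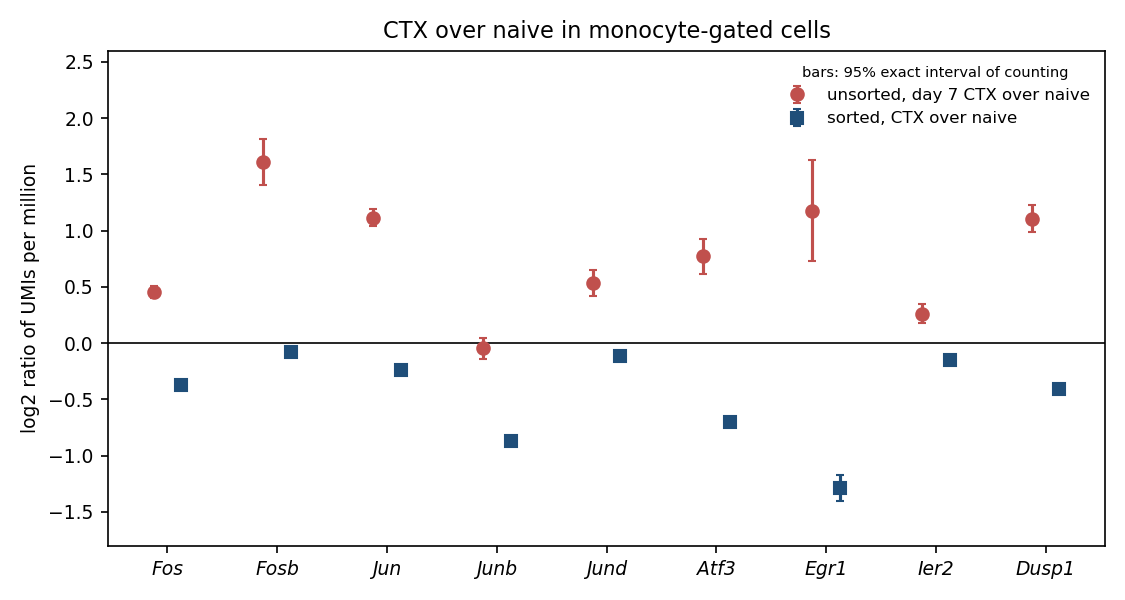
Log2 ratio of CTX over naive levels (CPM) of each gene in unsorted monocytes at day 7 (circles) and in sorted monocytes (squares), with 95% exact intervals of counting error. Every square lies below 0, and every circle except that of Junb lies above 0.

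The summed level was lower in the CTX sorted library in each subset of cells compared, but single members were not lower in all of them. Cells with azurophil genes were more frequent in the CTX library. In cells positive for none of the 3 lists the summed log2 ratio of CTX over naive was -0.41 (-0.42 to -0.40), with Junb at -0.82, Atf3 at -0.58 and Fosb at -0.15. In azurophil-gene cells it was -0.27 (-0.28 to -0.25), with Atf3 at -0.87, Junb at -0.61 and Jund at 0.05 (-0.01 to 0.11). In cells positive for the cycling but not the azurophil list it was -0.31 (-0.33 to -0.29), and there Fosb was higher after CTX, at 0.20 (0.10 to 0.31). With Ly6c2-matched cells the summed ratio was -0.39 in sorted and 0.59 in unsorted monocytes at D7, beside -0.38 and 0.60 without matching.

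At D2 the unsorted monocytes showed a mixed pattern in few cells, and the summed log2 ratio over naive was 0.14 (0.072 with Ly6c2-matched cells, 0.35 without the top 5% of cells by UMIs). Of the 8 members compared, 1 (Atf3) exceeded its naive level by 1 log2 unit or more, against 2.89% of 4224 genes compared. Atf3 was at 1.26 (1.08 to 1.44) and Dusp1 at 0.98 (0.84 to 1.13), while Jun was at -0.80 (-0.94 to -0.65) and Ier2 at -0.94 (-1.09 to -0.79). Jund and Junb were at 0.02 and 0.06, with intervals that included 0. The D2 gate also differed in its makeup: Vcan stood at 225 CPM against 6.7 CPM in naive and 10.5 CPM in D7 unsorted monocytes, and Ly6c2 at 658 against 1278 and 1127 CPM. With Ly6c2-matched cells (113 at D2) Atf3 was at 1.12, Dusp1 at 0.73, Jun at -0.89 and Ier2 at -0.97.

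Egr1 encodes a zinc finger factor known to promote monocytic differentiation, and it was the scarcest member in monocytes, while mature neutrophils and basophil and mast cell precursors held more of it. Unsorted monocytes held 13.9 CPM in naive, 19.3 CPM in D2 and 31.2 CPM in D7 mice, and sorted monocytes held 86.1 CPM in naive and 35.3 CPM in CTX mice. The naive sorted library stood apart and the CTX sorted library was near the D7 unsorted one, with a log2 ratio of 0.18 (-0.06 to 0.42) that included 0. In naive whole BM, mature neutrophils held 746 CPM and basophil and mast cell precursors 499 CPM. The gene thus reached higher levels in unsorted neutrophils than in any sorted monocyte library.

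Each member had its own distribution over the classes of naive whole BM. The highest levels of Fos (1385 CPM), Junb (2285 CPM), Dusp1 (1332 CPM) and Egr1 were in mature neutrophils, with Fos next in monocytes (1015 CPM). The same neutrophils held 49.0 CPM of Jun and 7.2 CPM of Atf3. Jun was highest in basophil and mast cell precursors (1960 CPM in 72 cells), followed by monocytes (437 CPM) and B lineage cells (398 CPM), whose intervals of counting did not overlap. Jund was highest in the same precursors (1351 CPM) and next in B lineage cells (1031 CPM), where Fos stood at 55.1 CPM and Fosb at 65.4 CPM. T and NK cells held 844 CPM of Junb and 92.3 CPM of Fos.

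**Figure D5:**
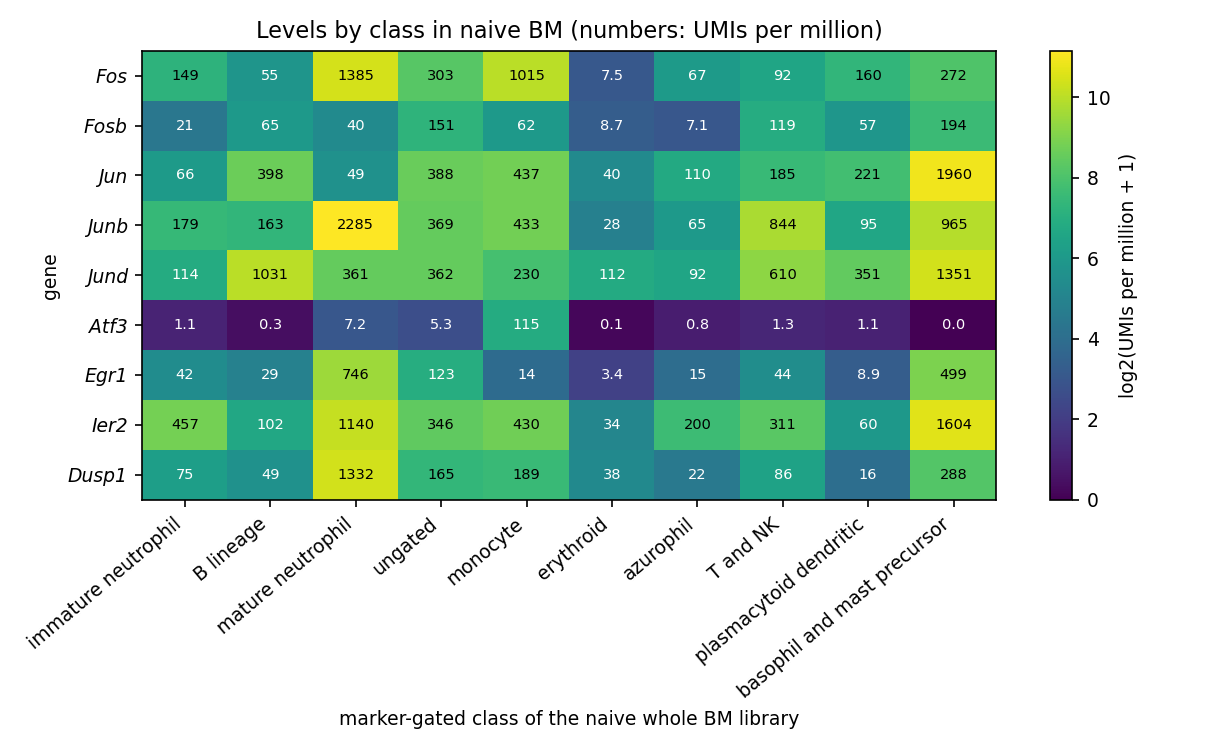
Level of the 9 genes (rows) in each marker-gated class of at least 50 cells of the naive whole BM library (columns). The 626 cells assigned to no class form a further column. Columns run from most to fewest cells, with CPM printed in each cell and coloured on a log2 scale. Among the marker-gated classes, Atf3 stands out in monocytes alone (115 CPM, at most 7.2 CPM in the others). Junb, Dusp1, Fos and Egr1 are highest in mature neutrophils among these classes.

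Atf3 was the member most restricted to monocytes. After the monocyte value of 115 CPM (105 to 126) came mature neutrophils at 7.2 CPM (3.9 to 12.0), and the remaining classes of at least 50 cells were at 0 to 1.3 CPM with overlapping intervals. At D2 it stood at 276 CPM in monocytes, 70.6 CPM in the 100 cells gated as macrophages and 41.1 CPM in mature neutrophils. At D7 it stood at 197 CPM in monocytes and 12.8 CPM in mature neutrophils. Monocytes were thus the highest class for Atf3 in each of the 3 whole BM libraries. The sorted libraries had only 1 (naive) and 3 (CTX) classes of at least 50 cells to rank.

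After CTX the members of other classes did not move together. In mature neutrophils at D2, 1 of 7 compared genes (Fosb, log2 ratio 1.37) was at least 1 log2 unit higher, against 6.16% of 2322 genes. The median of those genes was itself at 0.41, and with scaling by that median no member was higher by that much. Fosb held 78 UMIs in naive and 266 in D2 neutrophils, so it was compared mainly through D2. Fos was at 0.00 and Ier2 at -0.78. At D7, 1 of 7 (Egr1, -1.42, from 746 to 279 CPM) was at least 1 log2 unit lower, against 2.72% of 2203 genes, whose median was at -0.13. Fos was at -0.67, Dusp1 at -0.55 and Junb at -0.40 in these cells, opposite in sign to Fos and Dusp1 in monocytes of the same library.

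In B lineage cells at D2, 2 of 8 compared genes were at least 1 log2 unit higher (Egr1 at 2.34, from 29.0 to 147 CPM, and Junb at 1.05), where 9.83% of 6686 genes were, and 1 of 8 lower (Fosb at -2.55, from 65.4 to 11.1 CPM), where 7.52% were. The median of all genes compared was at 0.18, and with scaling by it Junb fell short of 1 log2 unit. At D7, in 179 cells, Fos (1.35) and Fosb (1.21) were the 2 of 8 at least 1 log2 unit higher, against 0.197% of 6086 genes, and Egr1 stood at 14.4 CPM. The direction of Fosb and of Egr1 in this class thus differed between the 2 days. The stage of the B lineage cells after CTX was not examined.

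In plasmacytoid dendritic cells at D7 (107 cells against 141), 3 of 4 compared genes were at least 1 log2 unit higher, against 0.967% of 1241 genes. They were Fosb at 2.14, Fos at 1.70 and Jun at 1.57. Fosb held 51 UMIs in naive and 171 in D7 cells and was not compared at D2. Its place in the count thus depends on its D7 level. Fos stood at 160, 205 and 521 CPM in naive, D2 and D7 cells of this class. Jund, the other gene compared, was at 0.50 (0.27 to 0.72). In the few basophil and mast cell precursors at D2 (46 cells against 72) Fosb stood at 1113 against 194 CPM, Egr1 at 2262 against 499 CPM, Fos at 1105 against 272 CPM and Jun at 1689 against 1960 CPM.

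Of the other genes known to respond early, 16 of 30 listed were compared between sorted and unsorted naive monocytes. Of the 16, 10 were at least 1 log2 unit higher, against 2.35% of 5841 genes compared, and none lower, with a median of 1.53. Socs3, Csrnp1 and Gadd45b reached 20 CPM only in the sorted library and so were compared through their higher group. This is the contrast that chose the members, so nothing is read from that count. Socs3, an inhibitor of cytokine signalling, was at 4.05 (53.1 against 3.22 CPM), Csrnp1 at 2.32 and the stress sensor Gadd45b at 2.25. At the other end, Klf10 was at 0.71, Fosl2, a further FOS family member, at 0.05 (-0.14 to 0.23), and Dusp6, a phosphatase specific for ERK, at -0.57 (-0.82 to -0.32). At D7, 14 were compared, with 2 higher, 2 lower and a median of 0.32. Over all 5720 genes compared there, 0.752% were higher and 0.909% lower. Between the sorted libraries, 5 of 16 were at least 1 log2 unit lower after CTX, against 0.755% of 5563 genes compared. Their median was -0.54, beside 0.04 over all genes.

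The kinases and promoter-bound factors that are known to carry the signal to these genes were compared in the same way. Of 26 compared upstream MAP kinases and bound activators, 0 were at least 1 log2 unit apart between naive sorted and unsorted monocytes. Over all genes compared, 2.35% were higher and 1.34% lower by that much. A count of 0 in 26 lies near those shares, so nothing is read from it. The median of the 26 was -0.17, from Map2k3 at 0.49 and Mapkapk2 at 0.45 to Rps6ka3 at -0.65 and Creb1 at -0.74. Of 10 NF-kB feedback genes, 6 were at least 1 log2 unit higher. The largest ratios were those of Tnfaip3 at 2.87, Tnf at 2.77 and Nfkbia, the inhibitor of NF-kB that it induces, at 2.42. Tnfaip3 (12.4 CPM) and Tnf (9.16 CPM) lay under 20 CPM in unsorted cells and were compared through the sorted library. At D7, 0 of the 6 NF-kB genes compared were at least 1 log2 unit higher, against 0.752% of 5720 genes. After CTX 4 of the 10 NF-kB genes were at least 1 log2 unit lower in sorted cells, against 0.755% of 5563 genes compared. Nfkbia stood there at 134 against 645 CPM, a larger difference than that of any of the 9 members. Of 12 compared AP-1 partners outside the FOS and JUN families, Mafk (1.55) and Ddit3 (1.55) were higher and Batf3 (-1.10) lower. Of 9 heat shock chaperones 1 was higher, Hspa1a at 2.38 (60.3 against 11.6 CPM). Mafk, Ddit3 and Hspa1a reached 20 CPM only in the sorted library, and Batf3 only in the unsorted one. The median over the 11 housekeeping genes compared was 0.00.

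Over 27 class and library points of at least 50 cells, the non-member genes whose log2(CPM + 1) followed the mean of the 9 most closely were Klf6 (Pearson r 0.88), Neat1 (0.87), Trps1 (0.85), Zfp36 (0.85) and Bcl10 (0.84), among 9419 genes. Klf6 and Zfp36 are themselves early response genes, a zinc finger factor and an RNA-binding protein that destabilises cytokine transcripts, and both were on the list above. Among the members, each compared with the mean of the other 8, Fos (0.86), Dusp1 (0.82) and Junb (0.75) followed the group most closely and Jun (0.43) and Egr1 (0.50) least. Junb and Dusp1 were the closest pair (0.84), whereas Jun and Egr1 showed no shared pattern (-0.06). The points share libraries, and these values are descriptions.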

How the data were processed

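Whole BM and sorted monocytes were profiled by droplet 3′ single-cell RNA-seq in 5 libraries. The authors deposited filtered count matrices, whole UMI counts per gene and cell with no normalization; the submitters' processing notes name Cell Ranger 3.1, Seurat 5.0 and mm10. The members and gene lists were chosen with earlier results of these data known. Cells with at least 200 genes and under 20% mitochondrial UMIs were kept and assigned to 1 of 11 marker classes (score of at least 0.3, margin 0.1); a class rich in MHC class II genes was too small to use. Doublets were not removed. UMIs were summed per class and scaled to CPM. A gene was compared where both groups together held 200 UMIs or more and either reached 20 CPM, on log2(CPM + 1). A gene could thus pass through its higher group alone, and counts of genes past the fold depend on that. The fold used was 1 log2 unit. Ratios of members carry exact conditional intervals and shares exact Clopper-Pearson intervals. For a share of 0 cells the approximate limit of 3 counts over the number of cells is given instead. With 1 library per group no test was run, and intervals cover counting error only. From each list the 3 largest and 3 smallest naive ratios were named (a few genes are not reported here), and the 5 non-members most like the members; other names were chosen after their values were seen. Cells were thinned with 1 fixed random seed. Python 3.11.15, numpy 2.4.6 and scipy 1.17.1 were used, and the ratio script was tested on simulated data. Gene positions are from GENCODE on GRCm38.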

Additional observations from a re-analysis of the deposited data

Results flagged for a closer look

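The difference between CTX and naive monocytes had opposite signs in the sorted and the unsorted libraries for 8 of the 9 genes, with each interval of counting error excluding 0. The sorted log2 ratio minus the unsorted D7 log2 ratio was -2.46 for Egr1, -1.68 for Fosb, -1.51 for Dusp1, -1.47 for Atf3, -1.36 for Jun, -0.83 for Fos, -0.65 for Jund and -0.41 for Ier2. Each side rests on 1 library per condition, so the difference was not tested against biological spread. Each value is also the D7 sorted over unsorted log2 ratio minus the naive one. The genes were chosen on sorted against unsorted levels, so the opposite signs are not independent of that choice and carry no test. For Junb the difference was also -0.83, but the unsorted ratio of -0.05 did not exclude 0.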

How the results depend on the processing

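With 1 pooled library per group leaving out a replicate was not possible. No paired analysis was possible because each group holds 1 library. Across the alternatives no ratio of a member or of their sum changed sign where its interval of counting error excluded 0, and 483 of 554 values for single genes and lists moved by less than that interval (lists by less than 0.1).

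The summed log2 ratio of naive sorted over unsorted monocytes was 2.36 with scaling by the median gene ratio, 2.19 with the mean of the cells' CPM, 2.20 with sorted cells ungated and 2.24 with Ly6c2-matched cells. The D7 ratio was 1.19 with sorted cells ungated and 1.27 with Ly6c2 matching. CTX over naive in sorted cells was -0.41 with median scaling, -0.40 with the mean of the cells' CPM, -0.42 ungated, -0.39 without the top 5% of cells by UMIs and -0.39 with Ly6c2 matching. In unsorted cells the D2 ratio was 0.32 with the mean of the cells' CPM, 0.35 without the top 5% and 0.072 with Ly6c2 matching, against 0.14, and the D7 ratio was 0.66 with median scaling and 0.50 with the mean of the cells' CPM.

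Members higher by 1 log2 unit or more in unsorted monocytes at D7 over naive numbered 3 to 4 over the alternatives, and in D7 sorted over unsorted monocytes 4 to 5. Members past 1 log2 unit at D2 in unsorted monocytes numbered 2 with the stricter cell filter, 2 with the mean of the cells' CPM and 2 without the top 5%. In mature neutrophils they numbered 0 higher at D2 with median scaling, and without the low-count filter 2 higher at D2 and 2 lower at D7. In B lineage cells at D2 they numbered 1 higher with the stricter gate, 1 with median scaling, 1 with the mean of the cells' CPM and 1 without the top 5%, and 3 without the low-count filter, against 2. In plasmacytoid dendritic cells at D7 they numbered 5 without the low-count filter, against 3.

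Over all genes, leaving out the low-count filter gave 274 higher and 472 lower (naive sorted over unsorted), 114 and 229 (D7), 12 and 93 (sorted CTX over naive), 839 and 390 (unsorted D2) and 109 and 187 (unsorted D7). In sorted CTX over naive, higher genes numbered 1 with median scaling, 1 with the mean of the cells' CPM and 8 ungated, and in unsorted D7 over naive lower genes numbered 7 with the looser gate and 17 with Ly6c2 matching.

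The share of monocytes with at least 5 members, in the order naive, D2, D7, naive sorted, CTX sorted, was 6.49%, 8.62%, 16.2%, 72.2% and 53.3% at 1000 UMIs, and 72.4%, 92.6%, 90.3%, 99.2% and 98.6% without thinning. At 2000 UMIs at least 3 members were seen in 73.0%, 77.1%, 84.7%, 99.1% and 98.6%, and at least 7 in 1.78%, 3.53%, 10.3%, 60.6% and 39.2%. The sorted shares exceeded the unsorted ones under each of these settings. Shallow classes limit the comparison of single cells: at 2000 UMIs 393 of 907 mature neutrophils of naive BM were left out.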
